A study of Caenorhabditis elegans with 46 samples.

Results

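miR-71 is a worm microRNA whose hairpin gives 2 mature arms, miR-71-5p (cel-miR-71-5p in the tables) and miR-71-3p (cel-miR-71-3p). Both arms were taken by name from the tables of all 46 libraries, where they were 2 of 473 worm microRNA arms. The study sequenced small RNA of 18 to 30 nt from whole first-larval-stage (L1) Caenorhabditis elegans, from at least 20 ug of total RNA per library. The method, known as mime-seq, expresses the plant methyltransferase Ath-HEN1 from a chosen promoter. HEN1 methylates the 3′ end of microRNAs in the cells that express it, and sodium periodate then destroys unmethylated small RNA ends, so that protected microRNAs remain in the oxidised library. Each genotype was sequenced as oxidised libraries and as untreated libraries.

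The genotypes were as follows. Ath-HEN1 was driven in worms lacking henn-1, the worm's own small RNA methyltransferase, by the promoters of rab-3, unc-31 and rgef-1 (neurons), elt-2 (intestine), myo-2 (pharyngeal muscle), myo-3 (body wall muscle) and rps-5 (a ribosomal protein gene, active broadly), and in the ASE sensory neurons. These 8 genotypes are written henn-1(0). The ASE and myo-3 constructs were also carried by worms with henn-1, written henn-1(+). Wild type worms (strain N2) carried no Ath-HEN1. The sources used here do not name the promoter behind the ASE lines. There were 2 oxidised and 2 untreated libraries per genotype, and 3 of each for rps-5, where 2 of the 3 come from line MLC558. In all other transgenic genotypes the 2 libraries of a condition are 2 different transgenic lines.

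MicroRNAs are cut from a hairpin as a duplex, and usually 1 arm is kept in Argonaute while its partner is degraded. In C. elegans, miR-71 is known for extending adult lifespan, where its action in neurons has been studied in worms without a germline, and for survival of starved L1 larvae. It also takes part in the left-right asymmetry of the AWC olfactory neurons, where it represses tir-1, a calcium signalling adaptor. The gene cel-mir-71 (WBGene00003299) lies on chromosome I of WBcel235, bases 9379927 to 9380020, on the minus strand. It sits in an intron of ppfr-1, a phosphatase regulatory subunit gene on the same strand. The 5p arm covers 9379983 to 9380005 (23 nt) and the 3p arm 9379948 to 9379968 (21 nt). An ncRNA gene on the plus strand, F16A11.6, overlaps the hairpin. The sources used here do not give the strand setting of the authors' counting, so antisense reads cannot be told apart.

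Depth ran between 10674800 and 43302400 counts in untreated libraries, and between 425711 and 35253800 in oxidised ones. The oxidised wild type libraries were the shallowest genotype, with 425711 and 846982 counts, and oxidised ASE henn-1(+) libraries had 632514 and 1267210. Marker arms of the tissue were kept in the oxidised libraries of the tissue drivers. On the log2 scale miR-124-3p (neurons) stood at 0.98, 1.44 and 2.47 in rab-3, unc-31 and rgef-1 worms, lsy-6-3p (left ASE neuron) at 4.60 in ASE henn-1(0) worms, miR-60-3p (intestine) at 1.47 in elt-2 worms, and miR-1-3p (muscle) at 2.34 and 3.51 in myo-2 and myo-3 henn-1(0) worms. All 7 rises passed edgeR's quasi-likelihood test and all alternative fits described next. The broad rps-5 driver did not keep all markers. There miR-1-3p stood at 1.17, miR-124-3p at 0.22, miR-60-3p at -1.14 and lsy-6-3p at -1.98. The 5 alternative fits all called miR-1-3p higher and miR-60-3p and lsy-6-3p lower in rps-5 worms, and none called miR-124-3p. These are whole worms, so fewer cells of a type and less RNA per cell cannot be told apart.

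One property of these libraries touches every scaled value below. Library sizes were scaled with TMM factors, which edgeR computes against 1 library of its choice. With all 46 libraries it chose an oxidised library, of myo-3 henn-1(+) worms, and the oxidised wild type libraries received factors of 3.75 and 2.73 and the oxidised ASE henn-1(+) libraries 3.43 and 2.57. When each library was left out in turn and the factors estimated again, an untreated library was chosen in 39 of 46 cases. Across the 46 possible choices, the log2 effect of oxidation on miR-71-5p in wild type worms lay between -3.09 and -0.80. These are plain differences of mean log2 scaled counts, with a median of -1.48, and -2.14 to -0.83 with untreated references. The library edgeR chose stands at the low end, with -3.11 in the fit. In ASE henn-1(+) worms the median was -1.44 and the fit gave -2.82, also at the low end. Shares of counts and the ratio of the 2 arms do not depend on this choice, and they are given beside the scaled values. Scaled results were also computed under 5 alternative fits: RLE factors, total counts, no filter on low counts, TMM against an untreated library, and DESeq2.

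miR-71-5p was among the most abundant microRNAs of untreated L1 worms in every genotype. It made up between 2.31% and 5.87% of the worm microRNA counts of the 23 untreated libraries (median 3.87%), and ranked between 4 and 13 among the arms of a library. The 3p arm made up between 0.0171% and 0.0493% (median 0.0344%) and ranked between 69 and 81. An untreated library held between 48.9 and 184 reads of the 5p arm for each read of the 3p arm. The edgeR F test among the 11 untreated genotypes did not pass for either arm (adjusted p = 0.455 for 5p and 0.755 for 3p), while 10.1% of the 395 tested arms passed.

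Loss of henn-1 was compared directly in untreated worms for the 2 constructs that had both backgrounds. miR-71-5p made up 4.68% and 5.87% of counts in ASE henn-1(0) worms, against 3.63% and 4.48% in ASE henn-1(+) worms. The log2 difference was 0.34 ± 0.32 (SE, edgeR, adjusted p = 0.991), where 0.253% of arms passed. In myo-3 worms it was 3.49% and 4.38% in henn-1(0) worms, against 4.17% and 2.87% in henn-1(+) worms, a log2 difference of 0.58 ± 0.32 (edgeR, adjusted p = 0.591). No arm of the table passed in the myo-3 comparison (0% of 395). The 3p arm differed by 0.17 ± 0.45 and 0.56 ± 0.46 (edgeR, adjusted p = 0.991 and 0.727) for ASE and myo-3. No alternative fit called any of these 4, and they put the myo-3 5p difference at 0.16 to 0.38 and the 3p one at 0.13 to 0.35.

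After oxidation, the share of miR-71-5p followed the genotype. In worms without Ath-HEN1 it was lower: 2.10% and 1.44% in oxidised wild type libraries, against 3.87% and 2.96% in untreated ones. ASE henn-1(+) worms gave similar shares, 2.07% and 2.13% oxidised against 3.63% and 4.48% untreated. In both genotypes the 2 conditions did not overlap, but the share of all arms that separated was not computed.

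The pan-neuronal drivers kept the 5p arm at a higher share in the oxidised libraries. It was 6.31% and 6.75% in oxidised rab-3 libraries, against 3.87% and 3.14% in untreated ones. In rgef-1 worms it was 7.60% and 7.10% oxidised, against 4.12% and 2.58% untreated. The oxidised unc-31 libraries differed from each other: 3.06% in line MLC530 at 22757400 counts and 11.0% in line MLC531 at 2028170 counts, against 2.88% and 3.89% untreated. Only the unc-31 groups overlapped among these 3 drivers. In ASE henn-1(0) worms the shares were 6.91% and 8.54% oxidised, against 4.68% and 5.87% untreated, with no overlap.

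The 5p shares varied among the muscle and intestinal drivers, and the difference between myo-2 and myo-3 worms was not tested. Oxidised myo-3 henn-1(0) libraries held 6.45% and 6.81%, against 3.49% and 4.38% in untreated ones, and oxidised myo-3 henn-1(+) libraries 6.19% and 5.19%, against 4.17% and 2.87%. Neither myo-3 pair of groups overlapped. In myo-2 worms the shares overlapped, at 3.72% and 4.25% oxidised against 3.68% and 4.99% untreated. In elt-2 worms they were close, at 3.20% and 2.94% oxidised against 2.88% and 2.86% untreated. The broad rps-5 driver gave 2.05%, 2.41% and 3.15% oxidised against 2.31%, 3.90% and 4.46% untreated, which overlap. Over the 11 genotypes the oxidised share lay above the untreated one without overlap in 6, below it in 2, and overlapped in 3. With 2 libraries per condition, groups often separate by chance alone. The share of all arms that separated was not computed, so these counts are not a result about miR-71 in particular. Within transgenic lines, the rps-5 share was lower after oxidation in both lines and the unc-31 share higher in both, while the myo-2 lines differed in direction.

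**Figure D1:**
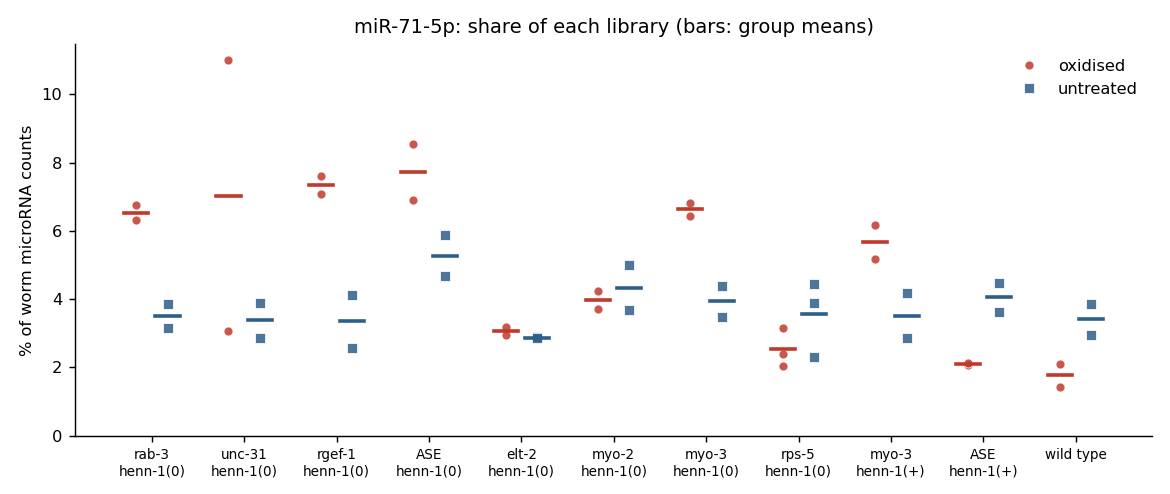
Share of worm microRNA counts taken by miR-71-5p (y axis, percent) in each library, by genotype (x axis), with oxidised libraries as red circles left of untreated libraries as blue squares and group means as bars. Oxidised wild type and ASE henn-1(+) libraries lie at 1.44% to 2.13%, below all their untreated libraries, and 1 oxidised unc-31 library stands at 11.0%.

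The scarce 3p arm moved further. In oxidised myo-2 libraries it made up 0.131% and 0.284% of counts, against 0.0255% and 0.0459% in untreated ones, and its rank in the library was 42 and 32, against 76 and 72. Oxidised myo-3 henn-1(0) libraries held 0.155% and 0.149%, against 0.0413% and 0.0437% untreated. Oxidised myo-3 henn-1(+) libraries held 0.111% and 0.122%, against 0.0455% and 0.0319% untreated. All oxidised muscle libraries were thus above all of their untreated libraries.

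The neuronal and intestinal drivers showed the same order. The 3p share was 0.153% and 0.104% in oxidised rab-3 libraries, against 0.0382% and 0.0483% untreated. It was 0.0521% and 0.0603% in oxidised unc-31 libraries, against 0.0171% and 0.0248% untreated, and 0.135% and 0.0990% in oxidised rgef-1 libraries, against 0.0344% and 0.0257% untreated. Oxidised elt-2 libraries held 0.123% and 0.0791%, against 0.0425% and 0.0252% untreated. Oxidised ASE henn-1(0) libraries held 0.0638% and 0.0896%, against 0.0265% and 0.0491% untreated. No pair of groups overlapped among these 5 genotypes. The share of all arms without overlap was not computed here either.

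The other 3 genotypes differed from that. With rps-5 the 3p shares overlapped, at 0.0573%, 0.0448% and 0.0263% oxidised against 0.0472%, 0.0493% and 0.0242% untreated. In ASE henn-1(+) worms they were 0.0183% and 0.0119% oxidised against 0.0388% and 0.0273% untreated. In wild type worms they were 0.0240% (95% Wilson interval 0.0197% to 0.0291%) and 0.00767% (0.00602% to 0.00978%) oxidised, against 0.0313% and 0.0272% untreated. The 2 wild type values rest on 102 and 65 counts, and the intervals cover counting error only.

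**Figure D2:**
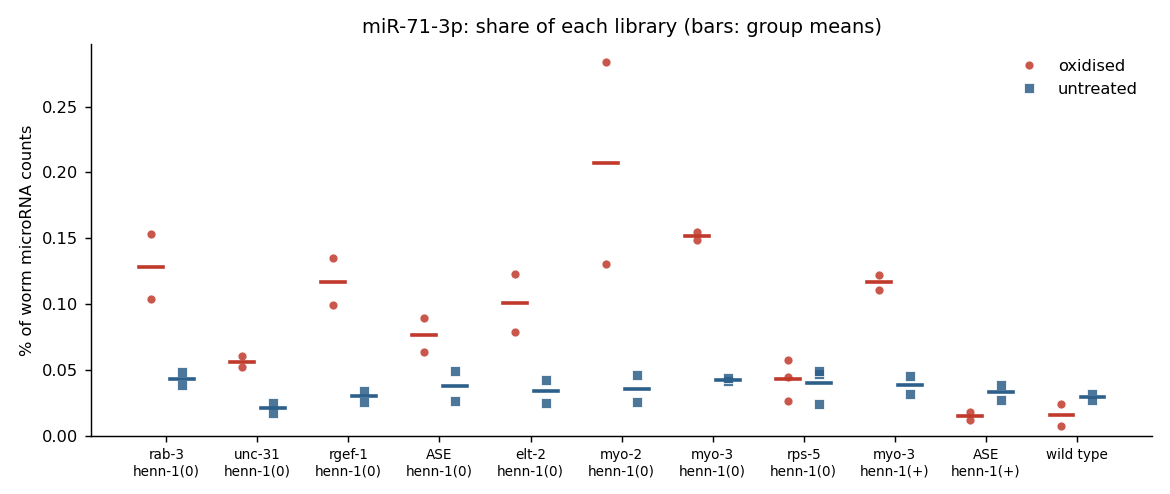
Share of worm microRNA counts taken by miR-71-3p (y axis, percent) in each library, by genotype (x axis), with oxidised libraries as red circles left of untreated libraries as blue squares and group means as bars. Oxidised libraries lie above untreated ones without overlap in 8 genotypes, led by the 0.284% of a myo-2 library, and below them in wild type and ASE henn-1(+) worms. The share of all arms that separate in this way was not computed.

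The 2 arms of the hairpin were compared with each other inside each library, which needs no scaling. After oxidation there were fewer 5p reads per 3p read. Averaged over the 11 genotypes, the log2 ratio of 5p to 3p (0.5 added to each count) was 0.81 lower in oxidised than in untreated libraries, a 1.75-fold fall (two-sided permutation test of treatment within genotype, 100000 resamples, p = 0.00014, lower in 9 of 11 genotypes). Without any 1 genotype the difference stayed between -0.91 and -0.63. The ratio was not computed for other hairpins, so the fall is not a result about miR-71 in particular. In myo-2 worms the scaled log2 effects were 5.45 for miR-55-5p and 0.43 for the more abundant miR-55-3p. They were 2.20 for miR-34-3p and 1.27 for the more abundant miR-34-5p, but 1.47 and 1.90 in rab-3 worms.

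The ratio fell furthest in myo-2 worms. Their oxidised libraries held 28.4 and 15.0 reads of 5p per read of 3p, against 144 and 109 in untreated ones, a log2 difference of -2.60. In elt-2 worms there were 26.0 and 37.1 oxidised against 67.8 and 113 untreated, a difference of -1.50. In myo-3 henn-1(0) worms there were 41.8 and 45.7 oxidised against 84.4 and 100.3 untreated, a difference of -1.07, and in myo-3 henn-1(+) worms the difference was -0.90. In these 4 genotypes the conditions did not overlap, but groups of 2 often separate by chance alone, and other hairpins were not examined for it.

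In the neuronal genotypes the differences were smaller, at -0.79 for rgef-1, -0.65 for rab-3, -0.65 for unc-31 and -0.52 for ASE henn-1(0), and the groups overlapped for rab-3 and unc-31. For rps-5 it was -0.54 with overlap, and it was negative within both lines (-0.56 and -0.54). Within the rab-3 and unc-31 lines the direction differed. In wild type worms the ratio was 87.7 and 187 oxidised against 124 and 109 untreated, a difference of 0.13, and in ASE henn-1(+) worms 113 and 178 oxidised against 93.6 and 164 untreated, a difference of 0.19. Both overlapped. Single genotypes with 2 libraries per condition cannot reach an exact permutation p under 0.05, so no test is given for each.

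**Figure D3:**
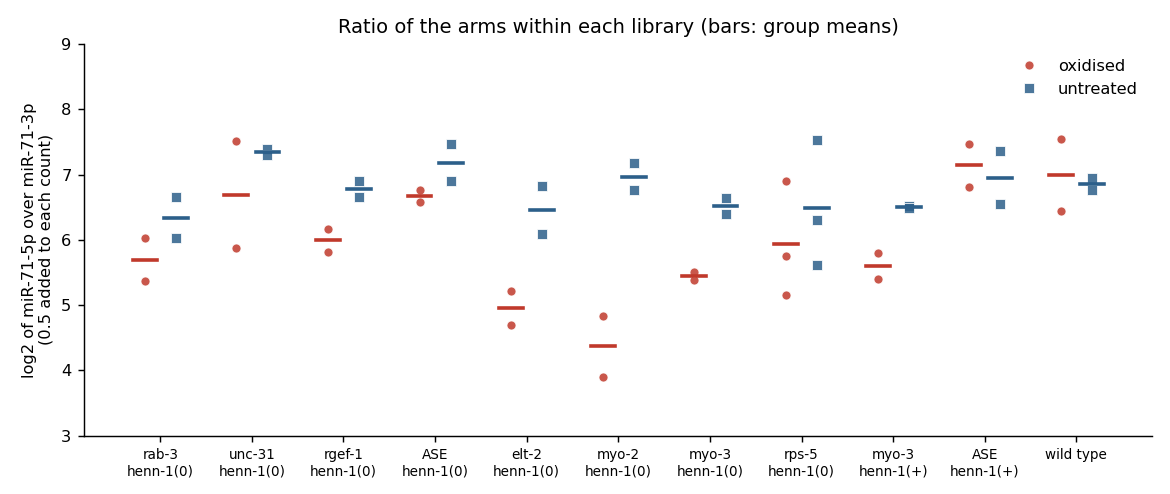
Log2 ratio of miR-71-5p to miR-71-3p counts within each library (y axis, 0.5 added to each count), by genotype (x axis), with oxidised libraries as red circles left of untreated libraries as blue squares and group means as bars. The oxidised groups of myo-2 and elt-2 worms lie lowest relative to their untreated groups, with differences of -2.60 and -1.50, and those of wild type and ASE henn-1(+) worms lie level with theirs. The ratio was not computed for other hairpins.

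In the scaled fit, the effect of oxidation is the log2 difference between oxidised and untreated libraries of a genotype, called at an adjusted p of 0.05. Nearly all comparisons called a large part of the table, so a call by itself sets miR-71 apart little. Among the 395 arms, 69.6% were called in wild type, 57.5% in rps-5, 72.9% in rab-3, 68.1% in unc-31, 72.4% in rgef-1, 74.9% in elt-2 and 66.8% in myo-2 worms. In myo-3 henn-1(0), myo-3 henn-1(+), ASE henn-1(0) and ASE henn-1(+) worms, 69.6%, 59%, 37.5% and 71.9% were called.

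miR-71-5p rose in rgef-1 worms by 0.95 ± 0.33 (SE, edgeR, adjusted p = 0.00990) and in myo-3 henn-1(0) worms by 0.81 ± 0.33 (edgeR, adjusted p = 0.0270). It fell in wild type worms, with an effect of -3.11 ± 0.35 (edgeR, adjusted p = 5.51e-10), in ASE henn-1(+) worms, with -2.82 ± 0.35 (edgeR, adjusted p = 3.88e-09), and in rps-5 worms, with -0.72 ± 0.27 (edgeR, adjusted p = 0.0206). The other 6 effects did not pass: 0.61 in myo-3 henn-1(+), 0.44 in rab-3, 0.09 in unc-31, 0.03 in elt-2, -0.09 in myo-2 and -0.10 in ASE henn-1(0) worms. Of the 5 alternative fits, 3 called the elt-2 effect higher (up to 1.01), 2 each the myo-3 henn-1(+) (up to 1.37), myo-2 (up to 1.15) and unc-31 effects (up to 1.05), 1 the rab-3 effect (0.90) and none the ASE henn-1(0) effect, which was positive in all 5 (0.21 to 0.55). In unc-31 worms the effect was -0.61 without the oxidised library of line MLC531, the one with a share of 11.0%, with the factors kept, and -0.02 with the transgenic line as a block. With that block the myo-3 henn-1(+) effect was 0.63 and was called (edgeR, adjusted p = 0.0496). None of the 5 calls above was made by every alternative fit. The 5 fits put the wild type effect between -1.09 and -0.72, called in 3, and the ASE henn-1(+) effect between -1.52 and -0.44, called in 2. With the factors kept and 1 library left out, the rgef-1 call was lost without the oxidised MLC664 library (0.70) or the untreated MLC665 library (0.66). The myo-3 henn-1(0) call was lost without the untreated MLC900 library (0.69) or the oxidised MLC901 library (0.62), and the rps-5 call without any of 4 of its 6 libraries (-0.62 to -0.59). For rps-5, 2 of the 3 libraries per condition come from line MLC558 and entered the fit as separate replicates.

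The 3p arm rose in 6 genotypes: by 2.64 ± 0.48 in myo-2, 1.88 ± 0.47 in myo-3 henn-1(0), 1.80 ± 0.47 in rgef-1, 1.54 ± 0.46 in elt-2, 1.50 ± 0.46 in myo-3 henn-1(+) and 1.12 ± 0.46 in rab-3 worms (edgeR, largest adjusted p = 0.0272). The first 5 were called by all 5 alternative fits, and in myo-2 worms those fits ranged between 2.54 and 3.88. It fell in wild type worms, with -3.13 ± 0.50, and in ASE henn-1(+) worms, with -3.03 ± 0.50 (edgeR, adjusted p = 8.79e-07 and 1.27e-06). Alternative fits called these 2 falls in 1 and 3 of 5 cases. With the factors kept and 1 library left out, the rab-3 rise was not called in 3 of 4 cases (0.72 to 1.32), nor the myo-3 henn-1(+) rise without the untreated MLC890 library (1.25). Effects of 0.64 in unc-31, 0.35 in ASE henn-1(0) and -0.20 in rps-5 worms did not pass.

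Values were also set against the median arm of the same comparison. New scaling factors move an arm and the median arm together, so these differences move less with the scaling by construction. The median itself varied: -1.72 in myo-3 henn-1(0), -1.61 in myo-2, -1.43 in elt-2 and -0.99 in myo-3 henn-1(+) worms. It was -0.58 in ASE henn-1(0), -0.42 in unc-31, -0.04 in rab-3, 0.11 in rgef-1 and 0.50 in rps-5 worms. A higher place above the median is thus not a higher effect. In the TMM fit the 5p effect was -0.09 in myo-2 and 0.03 in elt-2, but 0.95 in rgef-1 worms. miR-71-5p stood 2.53 above it in myo-3 henn-1(0) worms, 1.60 in myo-3 henn-1(+), 1.51 in myo-2 and 1.46 in elt-2 worms. It stood 0.84 above in rgef-1, 0.52 in unc-31, 0.48 in rab-3 and 0.48 in ASE henn-1(0) worms. Below the median arm it stood by -1.23 in rps-5, -0.99 in ASE henn-1(+) and -0.91 in wild type worms. The signs were the same in the 5 alternative fits, but in unc-31 worms they gave 0.68 to 0.82, and in wild type worms -1.36 to -0.84. The 3p arm stood 4.24, 3.60, 2.97 and 2.49 above the median in myo-2, myo-3 henn-1(0), elt-2 and myo-3 henn-1(+) worms. By rank of the effect among 395 arms, the 3p arm was 52nd from the top in myo-2 worms and the 5p arm 95th in myo-3 henn-1(0) worms, which were their highest places.

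When the 11 genotypes were ordered by effect, most neighbours could not be separated. For each arm, 9 of the 10 neighbouring pairs differed by less than 2 combined standard errors. The exception was the same for both arms, the step between rps-5 and ASE henn-1(+) worms, which was 2.09 for 5p and 2.83 for 3p. The oxidised libraries on the lower side of that step are those with the highest TMM factors. In the 5 alternative fits the same difference, rps-5 minus ASE henn-1(+), lay between -0.53 and 0.58 for 5p, below 0 in 3 of them, and between 0.21 and 1.49 for 3p.

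**Figure D4:**
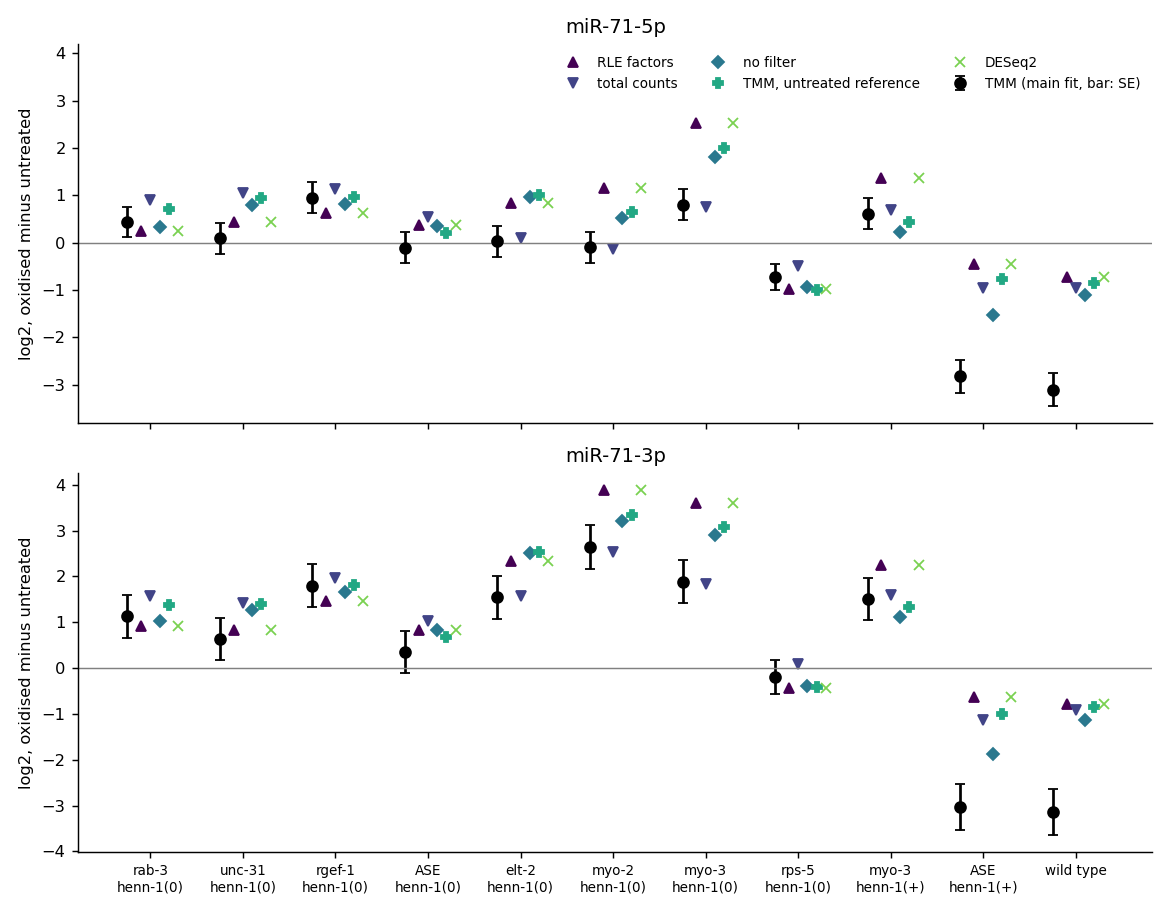
Log2 effect of oxidation (y axis, oxidised minus untreated) on miR-71-5p (top) and miR-71-3p (bottom) by genotype (x axis), with the TMM fit as black circles with standard errors and 5 alternative fits as coloured marks. The TMM fit lies near -3 for ASE henn-1(+) and wild type worms, below the 5 alternatives, and the 3p arm lies above 0 under all 6 fits in 8 genotypes.

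Whether the effect differed from the background of the method was tested as the effect in a transgenic genotype minus the effect in wild type worms. Both arms were called higher in 9 of 10 genotypes. The 5p differences were 4.06 ± 0.47 for rgef-1, 3.92 ± 0.47 for myo-3 henn-1(0), 3.72 ± 0.47 for myo-3 henn-1(+), 3.55 ± 0.47 for rab-3, 3.20 ± 0.47 for unc-31, 3.14 ± 0.47 for elt-2, 3.01 ± 0.47 for myo-2, 3.00 ± 0.47 for ASE henn-1(0) and 2.38 ± 0.42 for rps-5 worms (SE, edgeR, largest adjusted p = 8.23e-06). The 3p differences lay between 2.93 ± 0.61 for rps-5 and 5.77 ± 0.69 for myo-2 worms (edgeR, largest adjusted p = 7.47e-05). ASE henn-1(+) worms did not differ beyond their error, with 0.29 ± 0.46 for 5p and 0.10 ± 0.66 for 3p (edgeR, adjusted p = 0.948 and 1.00).

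Among all arms, 56.5% were called against wild type for rgef-1, 47.1% for myo-3 henn-1(0), 21% for myo-3 henn-1(+), 57% for rab-3, 55.9% for unc-31, 54.2% for elt-2, 42.5% for myo-2, 53.2% for ASE henn-1(0), 59.2% for rps-5 and 4.56% for ASE henn-1(+) worms. All of these comparisons share the wild type libraries. For both arms and all 9 calls, every alternative fit gave a smaller difference than the one printed above. The 5p calls for rgef-1 and myo-3 henn-1(0) were made by all 5 alternative fits, with differences of 1.34 to 2.08 and 1.70 to 3.24. Those for elt-2, myo-2 and myo-3 henn-1(+) were made by 4 of the 5, and those for rab-3 and unc-31 by 3. The 5p call for ASE henn-1(0) was made by 1, with differences of 1.07 to 1.50. For the 3p arm, 7 of the 9 calls were made by all 5, while ASE henn-1(0) was called by 4 and rps-5, at 0.36 to 1.00, by none. For rps-5 the 5p difference lay between -0.26 and 0.46 in the alternative fits and was called in none of them. The labels name no round of preparation or sequencing, and its part in these differences was not tested.

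Against the broad rps-5 driver, the effect on miR-71-5p was higher for the pan-neuronal drivers, by a mean of 1.22 ± 0.32 (SE, edgeR, adjusted p = 0.00168, 57.2% of arms called), and for myo-3 henn-1(0), by 1.53 ± 0.42 (edgeR, adjusted p = 0.00193, 60% called). All 5 alternative fits called both. It was not called for elt-2 (0.76 ± 0.42), myo-2 (0.63 ± 0.42) or ASE henn-1(0) worms (0.62 ± 0.42), where 54.2%, 48.9% and 35.2% of arms were called (edgeR, adjusted p = 0.125, 0.224 and 0.260). For elt-2 and myo-2, 4 of the 5 alternative fits did call it, with differences of up to 2.00 and 2.12, and for ASE henn-1(0) 3 of the 5 did, with up to 1.34.

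The 3p arm was higher than in rps-5 worms in 4 of these 5 comparisons. The differences were 2.84 ± 0.60 for myo-2, 2.08 ± 0.59 for myo-3 henn-1(0), 1.75 ± 0.59 for elt-2 and 1.39 ± 0.46 for the pan-neuronal mean (edgeR, largest adjusted p = 0.0118), all also called by the 5 alternative fits. The elt-2 difference was not called without the oxidised library of line MLC559 (1.42) or the untreated one of line MLC631 (1.51), with the factors kept. For ASE henn-1(0) worms it was 0.55 ± 0.59 (edgeR, adjusted p = 0.483). These comparisons share the rps-5 libraries, where 2 of the 3 per condition come from line MLC558 and entered the fit as separate replicates.

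Over the 8 henn-1(0) drivers, the edgeR F test of any difference in effect passed for both arms, with adjusted p = 0.0109 for 5p and 0.00117 for 3p, where 79.7% of arms passed. Directly between tissues, only 1 of 8 tests passed. The 3p effect was lower in the pan-neuronal mean than in the mean of the 2 muscle drivers, by -1.07 ± 0.42 (edgeR, adjusted p = 0.0295, 50.4% of arms called). It was called in 4 of 5 alternative fits, and it was not called in 10 of the 20 fits that left out 1 library with the factors kept, standing at -0.58 without 1 oxidised myo-2 library (line MLC529). The 5p effect there was 0.14 ± 0.30 (edgeR, adjusted p = 0.784), but it was negative in 4 of the 5 alternative fits and stood at -1.40 in the 2 that called it.

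The other tissue comparisons did not pass. The pan-neuronal mean minus elt-2 was 0.46 ± 0.37 for 5p and -0.36 ± 0.52 for 3p, with 46.6% of arms called (edgeR, adjusted p = 0.335 and 0.611). The elt-2 effect minus the muscle mean was -0.32 ± 0.40 and -0.71 ± 0.56, with 34.4% called (edgeR, adjusted p = 0.624 and 0.370). RLE factors and DESeq2 did call both 3p differences, at -1.26 and -1.40. The ASE henn-1(0) effect minus the pan-neuronal mean was -0.60 ± 0.37 and -0.84 ± 0.53, with 30.9% called (edgeR, adjusted p = 0.238 and 0.239).

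The effect was also compared between henn-1(0) and henn-1(+) worms with the same construct. For ASE, both arms were higher in henn-1(0) worms, by 2.71 ± 0.47 for 5p and 3.38 ± 0.66 for 3p (SE, edgeR, adjusted p = 5.99e-06 and 4.04e-05, 58% of arms called). In the alternative fits the 5p difference was 0.81 to 1.87 and was called in 2 of 5, and the 3p difference was 1.47 to 2.69 and was called in 3 of 5. With the factors estimated again, leaving out any 1 of the 8 libraries ended the 5p call, and leaving out any of 4 of them the 3p call. For myo-3 the differences were 0.19 ± 0.46 and 0.38 ± 0.64 (edgeR, adjusted p = 0.933 and 0.871, 14.4% called), and 2 of the 5 alternative fits called each, at up to 1.58 and 1.78.

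Arms were compared with miR-71-5p by Pearson's r of their effects over the 11 genotypes. CPM here are counts per 1e+06 counts of a library, without TMM factors. Of 105 arms of other hairpins with a mean of at least 100 CPM in untreated libraries, 5 were most like miR-71-5p. They were miR-56-3p (r = 0.96), miR-55-3p (0.95), miR-55-5p (0.93), miR-34-3p (0.91) and miR-58a-5p (0.89), and miR-71-3p itself stood at 0.94. The points share libraries and 1 scaling factor per library, so no p is given. With each genotype's median arm subtracted, the r values were 0.95 for miR-56-3p, 0.86 for miR-55-3p, 0.90 for miR-55-5p, 0.90 for miR-34-3p, 0.90 for miR-58a-5p and 0.95 for miR-71-3p. miR-55 and miR-56 belong to the miR-51 family, known for broad expression in the worm, miR-58a to the bantam-like family, and miR-34 to a family conserved in animals.

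The sizes of the effects of these arms differed widely. In wild type worms they were -4.60 for miR-56-3p and -4.41 for miR-55-3p, beside -3.11 for miR-71-5p, and both falls were called by all 5 alternative fits. For miR-58a-5p the wild type effect was -0.94, but between 1.05 and 1.40 in the alternative fits, which all called it higher. In myo-2 worms the effects were 5.45 for miR-55-5p, 4.23 for miR-58a-5p and 2.20 for miR-34-3p, all called by every fit, while miR-56-3p stood at -0.50, and between -0.49 and 0.76 in the alternative fits.

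**Figure D5:**
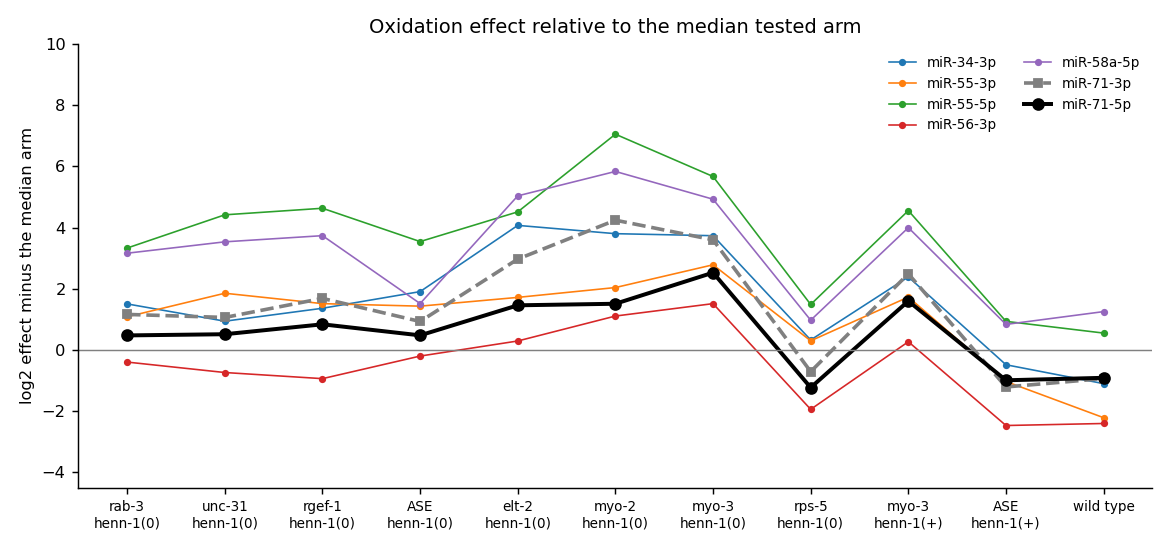
Log2 effect of oxidation minus the median effect of the 395 tested arms (y axis) by genotype (x axis) for miR-71-5p in black, miR-71-3p in grey dashes and the 5 arms most like miR-71-5p in colour. All 7 lines are highest in elt-2, myo-2 or myo-3 henn-1(0) worms, and miR-71-5p peaks at 2.53 in myo-3 henn-1(0) worms. The 5 coloured arms were chosen by likeness over these same effects, so a shared profile follows from the choice. The median subtracted from every line is also lower in those genotypes than in the pan-neuronal ones.

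Other microRNAs with reported roles in worm lifespan or stress were set beside it: the more abundant arms of lin-4, let-7, miR-34, miR-80, miR-228, miR-238, miR-239a, miR-239b and miR-246. All 9 were tested. Of these, let-7-5p, miR-246-3p and lin-4-5p were scarce, with means of 2.01, 9.52 and 26.8 CPM in untreated libraries. In wild type worms 6 fell and 2 rose (edgeR), with a median of -2.73 beside -2.20 over all arms, and in ASE henn-1(+) worms 7 fell and none rose, with a median of -2.21 beside -1.83. Of the 2 wild type rises, 1 was that of the scarce let-7-5p (2.79). In the alternative fits 2 fell in each of these genotypes, and 2 rose in wild type and 1 to 2 in ASE henn-1(+) worms. In rab-3 worms 4 rose and 2 fell, in rgef-1 worms 3 and 3, in unc-31 worms 2 and 2, and in ASE henn-1(0) worms 2 and 2. In elt-2 worms 4 rose and 3 fell, in myo-2 worms 3 and 2, and in rps-5 worms 1 and 1. In myo-3 henn-1(+) worms 1 rose and 2 fell. In myo-3 henn-1(0) worms none rose and 3 fell, although up to 3 rose there in the alternative fits. Over all 395 arms, 82 rose and 193 fell in wild type, 93 and 191 in ASE henn-1(+), and 143 and 145 in rab-3 worms. The counts were 156 and 130 in rgef-1, 124 and 145 in unc-31, 69 and 79 in ASE henn-1(0), and 111 and 185 in elt-2. For myo-2, rps-5, myo-3 henn-1(+) and myo-3 henn-1(0) worms they were 81 and 183, 138 and 89, 108 and 125, and 74 and 201. With so many arms called, the list counts by themselves set the list apart little.

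Some of these arms are given singly. miR-34-5p, of a family known for responses to DNA damage, rose in rab-3 (1.90), elt-2 (1.79), ASE henn-1(0) (1.67) and myo-2 worms (1.27), called by all alternative fits, and in rgef-1 worms (1.13), called by 2 of the 5. It fell in wild type (-2.73) and ASE henn-1(+) worms (-1.90), but no alternative fit called these falls, and the second lay between -0.53 and 0.46 there. miR-80-3p, of the same family as miR-58a, fell in all 11 genotypes, between -5.45 in myo-2 and -1.81 in myo-3 henn-1(0) worms. The myo-3 henn-1(0) fall was called by 1 of the 5 alternative fits and the other 10 by all. miR-228-5p, known for expression in glia, fell in 10 genotypes under every fit and stood at -0.06 in rps-5 worms. miR-238-3p rose in wild type worms too, by 0.82 (2.82 to 3.18 in the alternative fits), and by 3.31 in elt-2 worms.

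lsy-6-3p, the other asymmetry microRNA, acts in the left ASE neuron. It rose by 4.60 in ASE henn-1(0) and by 1.36 in ASE henn-1(+) worms, under every fit, where miR-71-5p stood at -0.10 and -2.82. In muscle and intestine it fell, with effects between -6.18 in myo-3 henn-1(+) and -5.12 in elt-2 worms, where miR-71-5p stood at 0.61 and 0.03.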

How the data were processed

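For each library the authors' deposited table lists 916 mature microRNA entries with their expected counts, of which 473 are worm arms and 443 were 0 throughout. The unit was read from the values, since 20 to 51 arms per library are fractional. miR-71-5p ends in 0.5 in 23 libraries and miR-71-3p is whole in all. cutadapt 1.2.1, HTSeq 0.6.1p1 and the build WBcel235 are named per the submitters' processing notes. No aligner is given in the sources used here.

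The rounded counts went into edgeR 4.0.16, run under R 4.3.3 beside limma 3.58.1: arms kept by its filter at a minimum count of 10 (395 arms), TMM factors, a robust quasi-likelihood fit of all 46 libraries with 22 group coefficients, Benjamini-Hochberg adjustment within each of 34 comparisons and 2 F tests, called at 0.05. Standard errors come from this fit. Tested on simulated data, this fit missed many of the smaller changes. In the shallow wild type libraries its log2 values ran low, as a signed median over simulated rises and falls together. That offset does not say whether effects were too small or too large. The simulation changed as many arms up as down in 1 genotype at a time, whereas in the data many arms changed in most genotypes. DESeq2 1.42.0 was an alternative. The ratio of the arms was tested with numpy 2.4.6 (Python 3.11.15).

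The members, the lifespan and marker lists and the tests were chosen with earlier results of these data known. The named arms are the 2 arms, the lifespan list, lsy-6-3p and the 5 arms most alike by Pearson's r; markers checked the drivers. Leaving out each library was run in 2 forms. In the first, the arms tested and the TMM factors were estimated again; after its results had been seen, a second form was written that keeps both from the full fit. Both are reported. The TMM fit with an untreated reference library was also added after the data were seen. Other alternatives were RLE factors, total counts, no filter on low counts, each genotype's own libraries alone and other pseudocounts for the ratio.

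Per the labels, the oxidised and untreated libraries of a transgenic genotype come from the same transgenic lines, which pairs them. Deviations of same-line libraries from their group means correlated between 0.00936 and 0.833 over the 10 transgenic genotypes, with the highest value in rps-5 worms. The line as a block was an alternative fit, and its values stand beside the results it changed. Replicates differed by more than counting error, and no 2 libraries were merged. The labels do not say whether libraries of 1 line come from separate cultures, so p-values measure the spread between these samples, which may be technical.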

Additional observations from a re-analysis of the deposited data

Results flagged for a closer look

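These results stand here because the effect of oxidation (log2, oxidised minus untreated) differed between 2 groups of worms by a test of the difference itself (edgeR). Most genotypes differed from wild type worms in both arms. For miR-71-5p the difference was 4.06 in rgef-1, 3.92 in myo-3 henn-1(0), 3.72 in myo-3 henn-1(+), 3.55 in rab-3, 3.20 in unc-31, 3.14 in elt-2, 3.01 in myo-2, 3.00 in ASE henn-1(0) and 2.38 in rps-5 worms. For miR-71-3p it was 5.77 in myo-2, 5.01 in myo-3 henn-1(0), 4.93 in rgef-1, 4.68 in elt-2, 4.64 in myo-3 henn-1(+), 4.26 in rab-3, 3.77 in unc-31, 3.48 in ASE henn-1(0) and 2.93 in rps-5 worms. All 18 share the wild type libraries, whose effect depends on the scaling. All 18 were smaller in every alternative fit, and none of those fits called the rps-5 difference of either arm.

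Against rps-5 worms, miR-71-5p was higher by 1.53 in myo-3 henn-1(0) worms and by 1.22 in the mean of the 3 pan-neuronal drivers. miR-71-3p was higher by 2.84 in myo-2, 2.08 in myo-3 henn-1(0), 1.75 in elt-2 worms and 1.39 in the pan-neuronal mean. Between the pan-neuronal drivers and the muscle drivers the 3p effect differed by -1.07. Between ASE henn-1(0) and ASE henn-1(+) worms the effects differed by 2.71 for 5p and 3.38 for 3p. No group had 4 or more libraries, so no single library was tested for standing apart.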

How the results depend on the processing

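The ratio of the arms kept its sign and its call with the other pseudocounts and without any 1 genotype. Its test ignored the pairing by line, and no run for the ratio left out a single library or used the line as a block. The 3p rises in myo-2, myo-3 henn-1(0), rgef-1, elt-2 and myo-3 henn-1(+) worms were called by all 5 alternative fits, while no 5p effect within a genotype was. What differs is given as log2 values, and the cause was not tested. Neurons are the 3 pan-neuronal drivers and muscle is myo-2 with myo-3 henn-1(0). With RLE factors calls were lost for 5p -0.72 for wild type, 0.63 for rgef-1, -0.44 for ASE henn-1(+), 0.96 for rab-3 minus wild type, 1.16 for unc-31 minus wild type, 1.08 for ASE henn-1(0) minus wild type and 0.81 for ASE henn-1(0) minus ASE henn-1(+), and for 3p -0.78 for wild type, 0.92 for rab-3 and -0.63 for ASE henn-1(+). Under the same setting calls were gained for 5p 0.84 for elt-2, 1.37 for myo-3 henn-1(+), 1.81 for elt-2 minus rps-5, 2.12 for myo-2 minus rps-5 and 1.34 for ASE henn-1(0) minus rps-5. There the sign turned for 5p 1.15 for myo-2, 0.37 for ASE henn-1(0), -0.26 for rps-5 minus wild type, -0.40 for neurons minus elt-2 and -1.40 for neurons minus muscle. With total counts calls were lost for 5p -0.49 for rps-5, 0.75 for myo-3 henn-1(0), 0.46 for rps-5 minus wild type, 1.04 for elt-2 minus wild type and 0.83 for myo-2 minus wild type, and for 3p -0.91 for wild type. Under the same setting calls were gained for 5p 0.90 for rab-3 and 1.05 for unc-31, and for 3p 1.42 for unc-31. There the sign turned for 5p 0.55 for ASE henn-1(0) and -0.000655 for ASE henn-1(+) minus wild type, and for 3p 0.0891 for rps-5, -0.22 for ASE henn-1(+) minus wild type and 0.0722 for neurons minus elt-2. Without the filter on low counts, where the TMM reference was an untreated elt-2 library, calls were lost for 5p 0.81 for rgef-1, 0.16 for rps-5 minus wild type, 1.33 for myo-3 henn-1(+) minus wild type and 1.44 for ASE henn-1(0) minus wild type. Under the same setting calls were gained for 5p 0.98 for elt-2, 1.92 for elt-2 minus rps-5, 1.47 for myo-2 minus rps-5 and 1.58 for myo-3 henn-1(0) minus myo-3 henn-1(+), and for 3p 1.26 for unc-31. There the sign turned for 5p 0.53 for myo-2, 0.35 for ASE henn-1(0), -0.43 for ASE henn-1(+) minus wild type, -0.33 for neurons minus elt-2 and -0.52 for neurons minus muscle, and for 3p -0.73 for ASE henn-1(+) minus wild type. With TMM against an untreated library, chosen after seeing the data, calls were lost for 5p -0.77 for ASE henn-1(+), 1.07 for ASE henn-1(0) minus wild type and 0.98 for ASE henn-1(0) minus ASE henn-1(+), and for 3p -0.85 for wild type. Under the same setting calls were gained for 5p 0.96 for unc-31, 1.01 for elt-2, 2.00 for elt-2 minus rps-5, 1.64 for myo-2 minus rps-5, 1.204 for ASE henn-1(0) minus rps-5 and 1.55 for myo-3 henn-1(0) minus myo-3 henn-1(+), and for 3p 1.40 for unc-31. There the sign turned for 5p 0.65 for myo-2, 0.21 for ASE henn-1(0), -0.14 for rps-5 minus wild type, -0.13 for neurons minus elt-2 and -0.44 for neurons minus muscle, and for 3p -0.16 for ASE henn-1(+) minus wild type. With each genotype's own libraries alone calls were gained for 5p 0.99 for unc-31 and 0.78 for myo-3 henn-1(+), and for 3p 1.42 for unc-31. There the sign turned for 5p 0.76 for myo-2 and 0.44 for ASE henn-1(0). DESeq2 gave the RLE values to 2 decimals for all of these, except that it did not call elt-2 5p. Among differences of 3p effects, rps-5 minus wild type lost its call under all 5 fits (0.36 to 1.00), ASE henn-1(0) minus wild type with TMM against an untreated library (1.54), neurons minus muscle with total counts (-0.54), and ASE henn-1(0) minus ASE henn-1(+) with RLE factors and DESeq2 (1.47). Calls were gained for neurons minus elt-2 (-1.26) and elt-2 minus muscle (-1.40) with RLE factors and DESeq2, and for myo-3 henn-1(0) minus myo-3 henn-1(+) without the filter (1.78) and with TMM against an untreated library (1.74). With the transgenic line as a replicate block, 5p was -0.0231 in unc-31 worms, against 0.09 without the block, and 0.63 in myo-3 henn-1(+) worms, where it gained a call (edgeR, adjusted p = 0.0496). The block changed no other call.

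Each library was left out in turn in 2 forms. With arms and factors kept, 24 of 686 values lost a call, 2 gained one and 17 turned sign, and 7 of 42 called results lost their call at least once. With both estimated again, 47 lost a call, 25 gained one and 45 turned sign, and 15 of 42 lost their call at least once. The kept form was chosen after the other had been seen. Where 1 library was left of a group, it was assumed to vary like the other groups. Over both forms the 5p effects ran -3.30 to -0.83 for wild type, -0.99 to -0.59 for rps-5, 0.31 to 1.09 for rab-3, -0.61 to 1.68 for unc-31, 0.66 to 1.50 for rgef-1, -0.0776 to 1.02 for elt-2, -0.45 to 1.26 for myo-2, 0.62 to 2.21 for myo-3 henn-1(0), -3.06 to -0.62 for ASE henn-1(+) and -0.32 to 0.58 for ASE henn-1(0). Differences of 5p effects ran -0.22 to 2.58 for rps-5 minus wild type, 1.03 to 3.67 for unc-31 minus wild type, 1.27 to 4.04 for myo-3 henn-1(+) minus wild type, 1.197 to 3.25 for ASE henn-1(0) minus wild type, -0.0218 to 0.50 for ASE henn-1(+) minus wild type, 0.63 to 2.08 for elt-2 minus rps-5, 0.27 to 2.32 for myo-2 minus rps-5, 0.41 to 1.64 for ASE henn-1(0) minus rps-5, -0.24 to 0.62 for neurons minus elt-2, -0.83 to 0.31 for neurons minus muscle, -0.13 to 1.72 for myo-3 henn-1(0) minus myo-3 henn-1(+) and 0.98 to 2.96 for ASE henn-1(0) minus ASE henn-1(+). The 3p effects ran -3.83 to -0.42 for wild type, -0.53 to 0.0177 for rps-5, 0.72 to 1.72 for rab-3, 0.39 to 1.79 for unc-31, 1.17 to 1.81 for myo-3 henn-1(+), -3.25 to -0.76 for ASE henn-1(+) and -0.0731 to 1.37 for ASE henn-1(0). Differences of 3p effects ran -0.0545 to 3.63 for rps-5 minus wild type and -0.62 to 0.92 for ASE henn-1(+) minus wild type. Between untreated groups, 5p ran -0.0132 to 0.90 for untreated myo-3 henn-1(0) minus untreated myo-3 henn-1(+), and 3p ran -0.00771 to 0.86 for untreated myo-3 henn-1(0) minus untreated myo-3 henn-1(+) and -0.42 to 0.60 for untreated ASE henn-1(0) minus untreated ASE henn-1(+).

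Depth limited the oxidised wild type values most, where miR-71-3p had 102 and 65 counts.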
